A study of Mus musculus with 6 samples.

Results

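A set of 10 genes of cholesterol efflux, lipoprotein uptake and liver X receptor signalling were examined in aortic smooth muscle cells of mice with and without floxed miR-21 alleles. They were taken by symbol from a deposited table of 20199 genes, which held all 10 (Apoe, Abca1, Abcg1, Nr1h2, Nr1h3, Mylip, Scarb1, Lpl, Lrp1 and Vldlr). All 10 passed the filter on low counts that left 15185 genes for testing. Bulk messenger RNA of cells from the aorta was sequenced in 6 libraries, 3 per genotype, at an age of 12 weeks in strain C57B6. The wild-type mice are labelled WT/mTmG/ Myh11ERT2 and the others miR-21fl/flmTmG/Myh11ERT2, with the group name miR21 -/-. The latter are called knockout below. Both groups thus carried mTmG, a fluorescent reporter of recombination, and Myh11ERT2, an inducible driver under the smooth muscle myosin promoter, which limits recombination to cells that use that promoter. Neither the use of an inducer nor the animal behind each library is stated in the labels, so p-values measure the spread between these libraries, which may be technical. The members were chosen with the knockout against wild-type values of Apoe and Abca1 already known, so their fold changes are given as a description.

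Cells cannot degrade the sterol ring, and they shed surplus cholesterol by exporting it to lipoproteins. Oxysterols switch on the nuclear receptors LXRα (Nr1h3) and LXRβ (Nr1h2). As partners of a retinoid X receptor these turn on genes of export (Abca1, Abcg1 and, in macrophages, Apoe) and Mylip, whose product marks lipoprotein receptors for degradation. In the arterial wall these genes are best known from macrophages and from smooth muscle cells that take up lipid and become foam cells.

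The libraries held 17123748 to 28610649 counts. Smooth muscle identity was clear in every library, with Myh11, the smooth muscle myosin gene, at 6560 to 11026 CPM (counts scaled to library size with TMM factors, used throughout) and Acta2 at 19401 to 25310 CPM. Wild-type replicate 1 stood apart on the first principal component (40.6% of the variance), at −58.1 against 1.53 to 27.3 for the other libraries, so the fold changes of the members and named pathway genes are also given without it where it moved them by over 1.5 times or turned their sign. Summed markers of red blood cells were at 387 CPM in that library and at 823 to 1186 CPM in the others. Deletion of miR-21 was not checked here, since long RNA libraries do not measure the mature microRNA.

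Apoe was lower and Abca1 and Mylip were higher in the knockout, with no overlap between the groups, while the other 7 members overlapped. Of all genes tested, 6.95% lay apart upward and 7.57% lay apart downward, and since the members were chosen on this contrast nothing is read from their count against these shares. No member passed edgeR's quasi-likelihood test adjusted over all genes (0 of 10, where 0% of the 15185 genes passed). DESeq2 called 1 member, Apoe, as fallen, where it called 0.475% of genes in either direction and 0.357% as fallen. The fitted mean was higher for 5 of the 10 and lower for the other 5, beside 49.9% and 50.1% of all genes, with a median log2 fold change of −0.01.

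**Figure D1:**
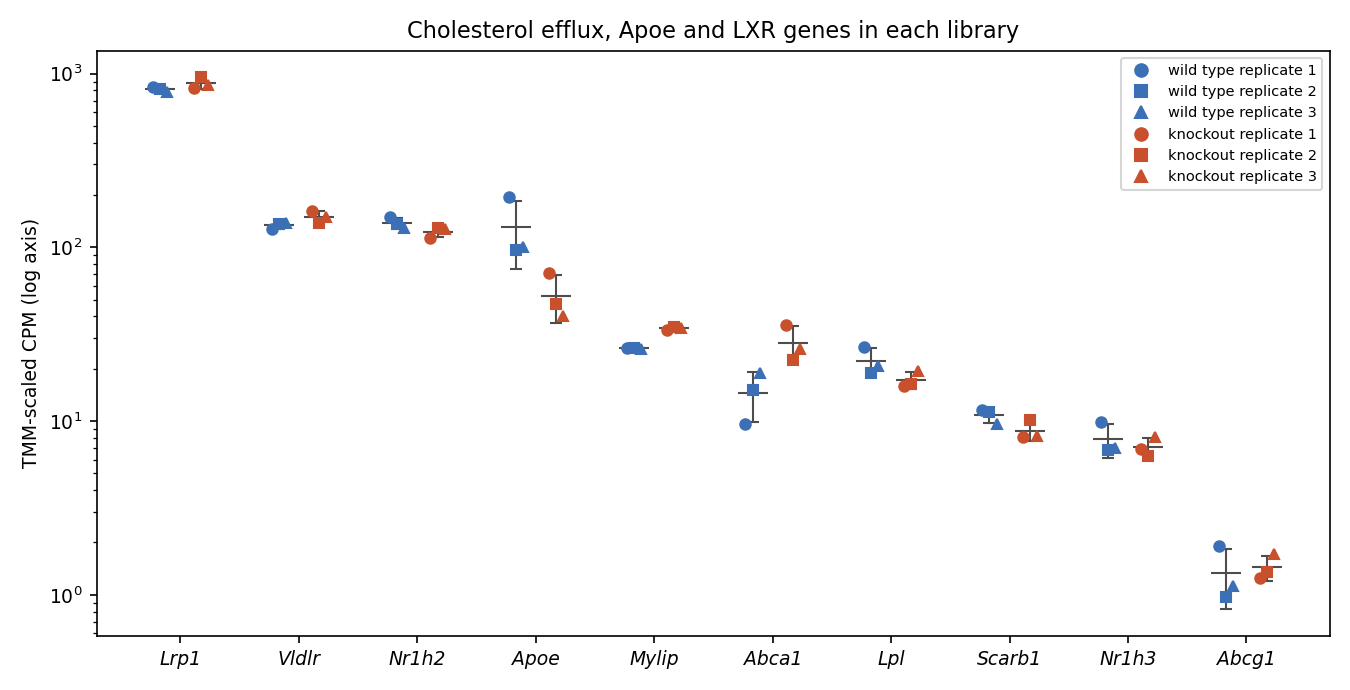
TMM-scaled CPM of the 10 members on a log axis, ordered by mean level, with 1 point per library (blue wild type, red knockout, shape by replicate) and a bar for the mean ± SD of 3 libraries. Apoe lies lower in the 3 knockout libraries, Abca1 and Mylip lie higher, and the other members overlap.

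Apolipoprotein E, the product of Apoe, is a secreted lipid carrier that accepts exported cholesterol and binds lipoprotein receptors such as Lrp1 and Vldlr. Apoe (mm10 chromosome 7, 19696109 to 19699188, minus strand) was at 194, 96.1 and 100.3 CPM in wild-type replicates 1 to 3 and at 71.1, 47.1 and 40.04 CPM in knockout replicates 1 to 3. All 3 knockout values lay below all 3 wild-type values, and wild-type replicate 1 was about 2 times as high as the other wild-type libraries. The group means were 130.1 ± 55.4 and 52.7 ± 16.3 CPM (SD, n = 3 each), a log2 fold change of −1.30 ± 0.30 SE (edgeR adjusted p = 0.507). The difference shrank to −0.90 without wild-type replicate 1, where edgeR called 0.0577% of genes and 0 members.

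DESeq2 called Apoe with all 6 libraries (adjusted p = 0.00571). The call held without any 1 wild-type library (adjusted p from 0.00137 to 0.00845) and without knockout replicate 1 (2.48e-04). It was lost without knockout replicate 2 (log2 fold change −1.22, DESeq2 adjusted p = 0.127) and without knockout replicate 3 (−1.13, 0.102). Calls over all genes also fell, from 68 with all 6 libraries to 29 and 4 in these fits. The fits that kept the call had 27 to 107 genes called in all. Apoe is abundant in macrophages, and in bulk RNA fewer cells of a type and less RNA per cell cannot be told apart. The macrophage list had 15 of 19 markers analysed here, and their summed level was 5.47, 7.93 and 12.1 CPM in wild type and 2.96, 11.6 and 6.02 CPM in knockout. Lyz2, the lysozyme gene, moved these sums most, at 0.416, 4.12 and 5.25 CPM in wild type and 0.569, 4.45 and 1.07 CPM in knockout. Ptprc, the pan-leukocyte gene, was at 0, 0 and 0.560 CPM in wild type and at 0.228, 0.180 and 0.320 CPM in knockout. Adgre1, the F4/80 gene, was at 0 in 4 of 6 libraries. Cd68 was at 2.68, 1.32 and 1.30 CPM in wild type and at 0.512, 1.12 and 1.14 CPM in knockout. Of the 4 macrophage genes tested, 2 were fitted higher and 2 lower in the knockout. Only Cd68 had groups that did not overlap, in the direction of Apoe, beside 7.57% of all genes apart downward.

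Schwann cells and fat cells also make Apoe or Lpl. The nerve and Schwann cell sum (4 of 10 markers analysed here) ran from 18.9 to 25.3 CPM in wild type and from 16.5 to 24.8 CPM in knockout, most of it Prx, a gene that endothelial cells also use. Of the 3 genes of this list tested, 0 were fitted higher and 3 lower in the knockout (median log2 fold change −0.36). The groups of 1 of them lay apart downward, in the direction of Apoe, beside 7.57% of all genes. The adipocyte sum (3 of 11 markers analysed here, most of it Fabp4) ran from 72.8 to 96.4 CPM in wild type and from 58.2 to 87.2 CPM in knockout. The part of macrophages, Schwann cells, fat cells, endothelial cells or adventitial fibroblasts in the Apoe difference was not tested. Endothelial sums (12 of 12 markers, led by Esam, Erg and Pecam1) overlapped, at 119 to 138 and 120 to 154 CPM. So did the adventitial fibroblast sums (10 of 10 markers, led by Col14a1, Lum and Serpinf1), at 220.5 to 254 CPM in wild type and 172 to 249.9 CPM in knockout. Of 8 endothelial genes tested, 7 were fitted higher and 1 lower in the knockout, with 0 apart. Of 10 fibroblast genes tested, 3 were fitted higher and 7 lower, with 1 apart downward, beside 7.57% of all genes.

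**Figure D2:**
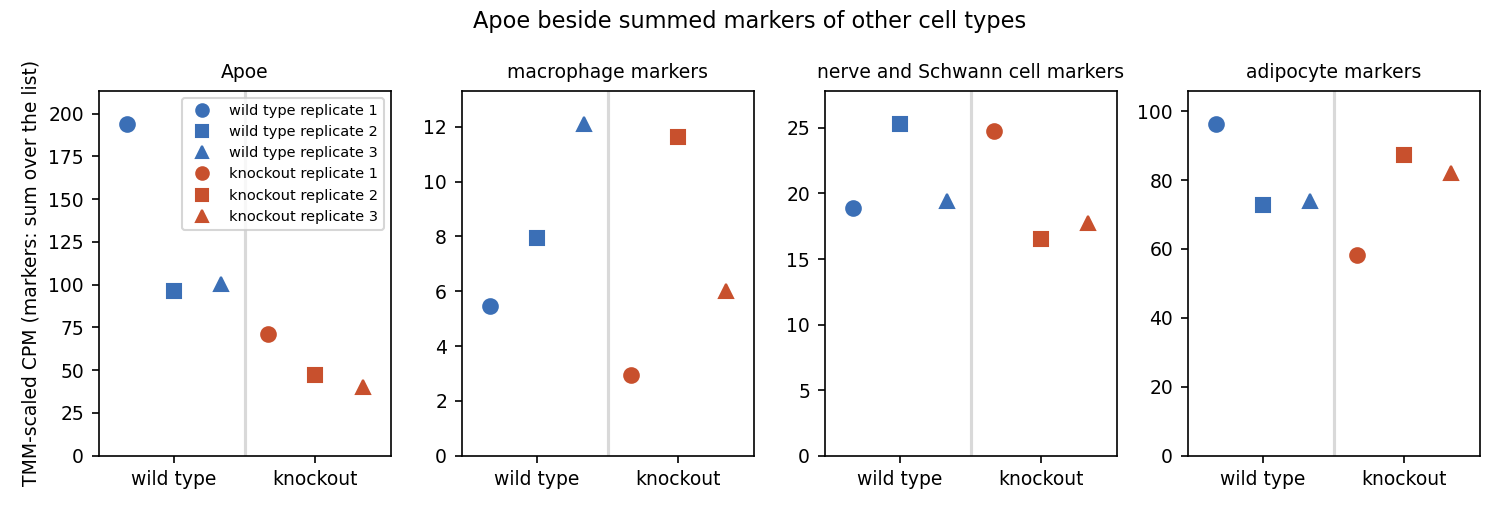
TMM-scaled CPM of Apoe and of summed macrophage, nerve and Schwann cell, and adipocyte markers, with 1 point per library (blue wild type, red knockout, shape by replicate). Apoe does not overlap between genotypes and the 3 sums do. Within the lists, Cd68 (macrophage) and 1 gene of the nerve and Schwann cell list lie apart downward. The part of these cells in the Apoe difference was not tested.

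Abca1 and Abcg1 encode the membrane pumps that hand cholesterol to apolipoprotein A-I and to high-density lipoprotein. Abca1 (chromosome 4, 53030787 to 53159895, minus strand) was at 9.63, 15.2 and 18.9 CPM in wild type and at 35.9, 22.4 and 26.1 CPM in knockout. Wild-type replicate 1, the highest library for Apoe, was the lowest for Abca1, and the nearest values of the groups were 18.9 and 22.4 CPM. The means were 14.6 ± 4.68 and 28.2 ± 6.98 CPM, a log2 fold change of 0.94 ± 0.26 SE (edgeR adjusted p = 0.601; DESeq2 adjusted p = 0.0788). Leaving out 1 library gave log2 fold changes from 0.71 (without wild-type replicate 1) to 1.17 (without wild-type replicate 3). Without wild-type replicate 3 DESeq2 called Abca1 as risen (adjusted p = 0.0299), in a fit that called 27 genes in all.

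Abcg1 (chromosome 17, 31057698 to 31115777, plus strand) was the lowest member. Its counts were 32, 19 and 32 in wild type and 22, 30 and 48 in knockout, or 1.90, 0.966 and 1.12 CPM against 1.25, 1.35 and 1.71 CPM. The groups overlapped, and counting error alone amounts to 19.0% and 17.3% of its mean counts per library. The log2 fold change was 0.13 ± 0.37 SE (edgeR adjusted p = 0.936), −0.04 without wild-type replicate 2, −0.02 without knockout replicate 3 and 0.46 without wild-type replicate 1. The direction of Abcg1 was therefore not settled by these libraries.

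Mylip encodes the ubiquitin ligase IDOL, which sends lipoprotein receptors such as Vldlr and Lrp8 to the lysosome. Mylip (chromosome 13, 45389742 to 45412022, plus strand) was at 26.3, 26.3 and 26.0 CPM in wild type and at 33.6, 34.8 and 34.1 CPM in knockout. The libraries of each genotype agreed closely and the groups lay well apart. The means were 26.2 ± 0.138 and 34.2 ± 0.582 CPM, a ratio of 1.30 and a log2 fold change of 0.38 ± 0.11 SE (edgeR adjusted p = 0.628; DESeq2 adjusted p = 0.175). Any 1 library left out gave 0.37 to 0.40. The observed spread, 0.525% of the mean in wild type and 1.70% in knockout, was under what counting gives on its own (4.20% and 3.59%), so the SD over these 3 libraries is smaller than sampling of reads allows on average.

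**Figure D3:**
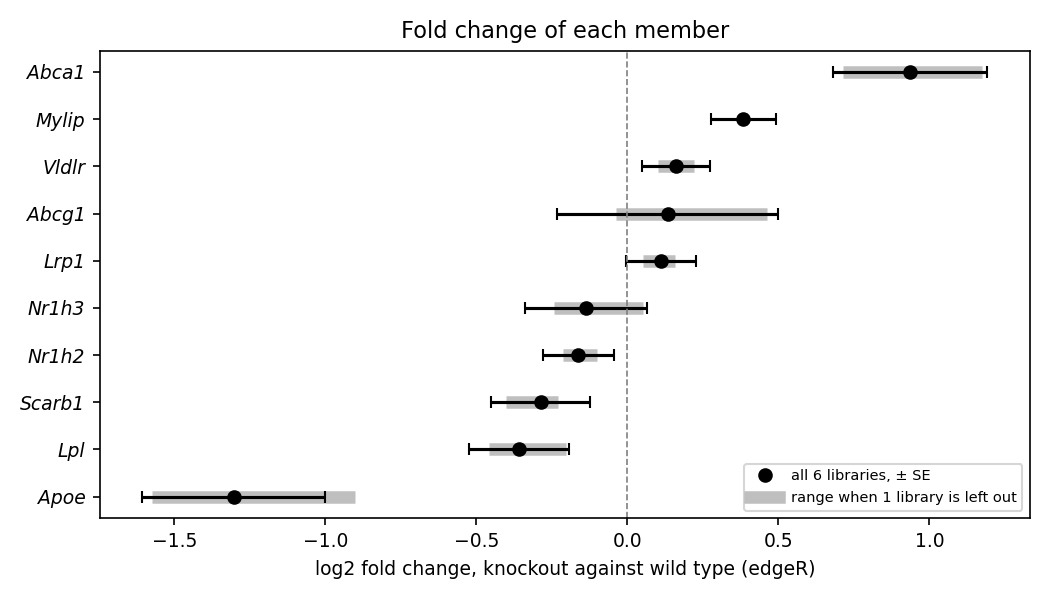
Log2 fold change of each member in edgeR, knockout against wild type, with points and bars for all 6 libraries ± SE and grey bands for the range when 1 library is left out. Mylip has the narrowest band (0.37 to 0.40), Apoe (−1.57 to −0.90) and Abca1 (0.71 to 1.17) keep their sign, and the bands of Abcg1 and Nr1h3 cross 0.

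The bases before the start sites of these 3 genes are shown because LXR targets carry a known element, DR4, a direct repeat of AGGTCA with 4 bases between (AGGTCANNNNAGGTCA). Both strands of the 250 bases upstream of each RefSeq start available for these genes (GRCm38.p6) were searched. Up to 3 mismatches in the 12 fixed letters were allowed, and a match is in capitals. Abca1 lies at chr4:53159896-53160145, Mylip at chr13:45389492-45389741 and Apoe at chr7:19699189-19699438, each read 5′ to 3′ on the strand of its gene.
Abca1: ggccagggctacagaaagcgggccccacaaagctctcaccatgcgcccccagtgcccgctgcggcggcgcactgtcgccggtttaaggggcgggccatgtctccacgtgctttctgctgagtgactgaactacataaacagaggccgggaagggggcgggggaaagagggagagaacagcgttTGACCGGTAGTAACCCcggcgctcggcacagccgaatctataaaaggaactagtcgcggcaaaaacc
Mylip: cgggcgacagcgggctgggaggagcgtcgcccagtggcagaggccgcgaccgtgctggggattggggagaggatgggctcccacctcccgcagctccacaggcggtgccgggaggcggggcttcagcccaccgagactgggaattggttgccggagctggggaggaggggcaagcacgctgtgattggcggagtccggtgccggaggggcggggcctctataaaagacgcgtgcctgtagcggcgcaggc
Apoe: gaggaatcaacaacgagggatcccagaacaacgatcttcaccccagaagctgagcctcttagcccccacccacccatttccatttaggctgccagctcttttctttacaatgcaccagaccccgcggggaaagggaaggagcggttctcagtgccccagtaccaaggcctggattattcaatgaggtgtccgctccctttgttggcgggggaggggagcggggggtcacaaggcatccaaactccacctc

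In Abca1 the match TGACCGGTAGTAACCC, on the opposite strand, lay 67 to 52 bases before the start and differed from DR4 at 3 letters. A match with up to 3 mismatches occurred in 18.5% of 32851 promoter windows of this length, and 1 with up to 2 mismatches in 2.57%. The closest stretch differed at 6 letters in Mylip and at 5 in Apoe (4 before each of its inner starts), so these windows held no match. The windows of Nr1h2, Nr1h3, Lrp1 and Vldlr held none either. Those of Nr1h3 lay at inner starts, 7718 and 7799 bases from its deposited 5′ end. The outermost RefSeq end of Apoe (19701310) had no window. Windows of 250 bases do not cover elements farther away, so a window without a match does not show that a gene lacks the element. The E-box CACGTG occurred in Abca1 (147 bases before the start) and in 6.02% of windows. The TATA box TATAAA occurred 29 bases before the start of Abca1 and 32 before that of Mylip, and 100 and 96 before an inner start of Apoe, against 12.4% of windows. The GC box GGGCGG was present in Abca1, Mylip, Lrp1 and an inner start of Vldlr, against 32.7% of windows. None of these overlapped the DR4 match.

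Counts of 2 genes within 1 library do not depend on how libraries are scaled. The ratio of Abca1 to Apoe counts was 0.0496, 0.158 and 0.189 in wild type and 0.505, 0.476 and 0.652 in knockout. For Mylip to Apoe it was 0.135, 0.274 and 0.260 against 0.473, 0.739 and 0.852. Since Apoe lay apart downward and Abca1 and Mylip upward, the separation of both ratios follows from the single genes and adds no support to them. Abca1 to Abcg1, by contrast, was at 5.06, 15.7 and 16.9 in wild type and 28.7, 16.6 and 15.3 in knockout. In that ratio 4 libraries lay close together, with wild-type replicate 1 below them and knockout replicate 1 above.

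**Figure D4:**
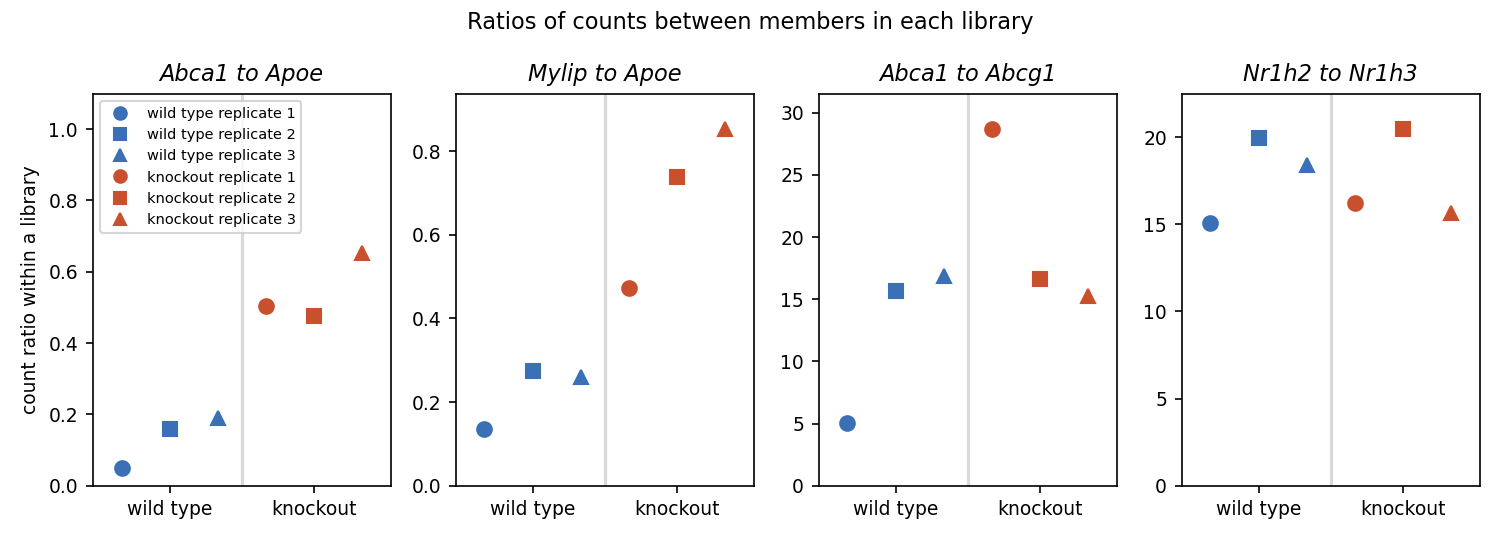
Ratios of counts between pairs of members within each library, with linear axes from 0 (blue wild type, red knockout, shape by replicate). Abca1 to Apoe and Mylip to Apoe do not overlap between genotypes, as follows from the values of the single genes, and Abca1 to Abcg1 and Nr1h2 to Nr1h3 overlap.

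The receptors that switch on these targets differed little between the genotypes. Nr1h2 (chromosome 7, 44549616 to 44553951, minus strand) was at 149, 136 and 128 CPM in wild type and at 113, 129.6 and 127 CPM in knockout. The log2 fold change was −0.16 ± 0.12 SE (edgeR adjusted p = 0.782), and −0.10 without wild-type replicate 1. Nr1h3 (chromosome 2, 91184061 to 91202834, minus strand) was at 9.87, 6.81 and 6.97 CPM in wild type and at 6.94, 6.33 and 8.12 CPM in knockout. Wild-type replicate 1 set the direction of Nr1h3, since its log2 fold change of −0.14 ± 0.20 SE (edgeR adjusted p = 0.869) became 0.05 without that library. Per exon length Nr1h2 was 13.2 ± 1.71 times the level of Nr1h3 (SD over 6 libraries), and this ratio ran from 11.3 to 14.9 in wild type and from 11.7 to 15.3 in knockout. LXRβ was therefore the more abundant receptor transcript in every library.

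Lrp1, Vldlr and Scarb1 encode receptors that bind Apoe-rich or high-density lipoproteins. Lrp1 (chromosome 10, 127538161 to 127621148, minus strand), a large endocytic receptor that smooth muscle uses for remnants, proteases and growth factor signalling, was at 839, 820.5 and 786 CPM in wild type. In knockout it was at 826, 952 and 864 CPM, a log2 fold change of 0.11 ± 0.12 SE (edgeR adjusted p = 0.823). Vldlr (chromosome 19, 27216484 to 27254231, plus strand), the receptor of very-low-density lipoproteins and reelin, was at 127, 136 and 138 CPM in wild type and at 162, 138 and 149 CPM in knockout. The groups of Vldlr nearly separated, with the lowest knockout library just under the highest wild-type library (0.16 ± 0.11 SE, edgeR adjusted p = 0.781). Scarb1 (chromosome 5, 125277087 to 125341094, minus strand), the scavenger receptor that exchanges cholesterol with high-density lipoprotein, was at 11.5, 11.3 and 9.56 CPM in wild type and at 8.08, 10.2 and 8.19 CPM in knockout. The change of −0.29 ± 0.16 SE on the log2 scale did not pass the test (edgeR adjusted p = 0.778). The gene Gm42633 overlaps Scarb1 on the same strand but held 0 to 5 counts per library.

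Lpl encodes lipoprotein lipase, which frees fatty acids from triglyceride-rich particles at the vessel surface. Lpl (chromosome 8, 68880491 to 68907448, plus strand) was at 26.8, 18.9 and 20.8 CPM in wild type and at 15.9, 16.3 and 19.5 CPM in knockout. Wild-type replicate 1 was again highest, and knockout replicate 3 reached into the wild-type range. The log2 fold change was −0.36 ± 0.17 SE (edgeR adjusted p = 0.778), and −0.20 without wild-type replicate 1.

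Because miR-21 is the targeted gene, its seed was searched in the 3′ untranslated regions of the members. The mature strand (RefSeq, GRCm38.p6, chr11:86584120-86584141, minus strand) is shown with the seed, bases 2 to 8, in capitals, and the Vldlr sites with the matching bases in capitals.
mmu-miR-21a-5p: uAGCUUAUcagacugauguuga
Vldlr, site 1: tcccaaacattTAAGCTAgagttagttct
Vldlr, site 2: ttccaaaccaaATAAGCTtgctgccatgg

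The search read the longest 3′ untranslated region among the annotated coding transcripts of each of the 10 genes. Vldlr was the only member with a match, holding TAAGCTA at base 685 and ATAAGCT at base 4281 of 5091, neither of them part of an 8-base site. Apoe, Abca1 and Mylip, whose groups lay apart, held neither 7-base match in 271, 3156 and 1509 bases. Longer regions offer more chances for a match, and that of Vldlr was the longest of the 10. A match is not evidence of binding.

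Levels were then compared between members per kilobase of exon, over all 6 libraries. Lrp1 (47.9 ± 3.21 CPM per kb, SD), Apoe (46.2 ± 28.3) and Nr1h2 (38.7 ± 3.53) were highest. Apoe, from 20.2 to 98.0 CPM per kb, overlapped both of the others, and Nr1h2 stopped just under Lrp1 (33.5 to 44.3 against 44.4 to 53.7). In wild type Apoe had the highest mean (65.7 ± 28.0, against 46.0 ± 1.52 for Lrp1 and 40.9 ± 3.12 for Nr1h2), and in knockout it was under both (26.6 ± 8.22, against 49.7 ± 3.63 and 36.6 ± 2.68). Next came Vldlr (14.1 ± 1.21) and Mylip (9.86 ± 1.43), whose ranges did not meet each other or the neighbouring members. Nr1h3 (2.98 ± 0.516), Lpl (2.89 ± 0.581) and Abca1 (2.06 ± 0.882) overlapped, as did Abca1 and Scarb1 (1.56 ± 0.236), and Abcg1 was last (0.340 ± 0.0878). With the length of the longest coding transcript in place of all exons, Apoe (66.0) came first, then Nr1h2 (65.2) and Lrp1 (57.0), and Scarb1 (3.89) moved above Nr1h3 (3.84) and Abca1 (2.08), so the order among close neighbours depends on the length used.

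The members differed in their spread within a genotype. Wild-type spreads include replicate 1, which stood apart on the first principal component, and its part in the difference between genotypes was not tested. Across 9139 genes with a mean of at least 10 CPM, the median coefficient of variation was 14.1% in wild type and 7.86% in knockout. Apoe varied by 42.6% and 30.9%, more than 98.6% and 98.7% of those genes. Its wild-type spread came from replicate 1 alone, at 194 CPM, since the other wild-type libraries were at 96.1 and 100.3 CPM. Abca1 varied by 32.1% and 24.8%, more than 93.3% and 96.9% of them. Lrp1 (3.30% and 7.30%) and Vldlr (4.44% and 8.12%) varied little in wild type and near the median in knockout. The counting error of Apoe was 1.93% and 2.96% of its mean.

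The wider pathway was read from 6 lists, which together name 98 genes that are not members, of which 70 were tested. No gene of these lists passed edgeR (0 of 70), and 41 were fitted higher and 29 lower in the knockout. Their median log2 fold change was 0.07, against 0.00 (−0.0008) for all genes tested. The groups lay apart upward for 7 and downward for 11 genes, or 10% and 15.7%, beside 6.95% and 7.57% of all genes. Since the lists were chosen with earlier results of these data known, nothing is read from these counts against the shares of all genes.

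Efflux and LXR target genes, members included, were fitted higher in 9 and lower in 8 of 17 tested (median 0.0027); without the members the numbers were 6 and 5. Abcg4, a sterol exporter related to Abcg1, was at 15.2, 18.4 and 17.7 CPM in wild type and at 23.8, 22.6 and 22.1 CPM in knockout (0.42 ± 0.13 SE on the log2 scale, edgeR adjusted p = 0.695), apart in the direction of Abca1. Pltp, the phospholipid transfer protein gene, lay apart in the direction of Apoe, at 17.6 to 21.1 and 14.3 to 16.7 CPM (−0.32 ± 0.14 SE). Abca7 (0.38 ± 0.22), Scd2 (−0.18 ± 0.28) and Mertk (0.29 ± 0.18) overlapped, and without wild-type replicate 1 they were at 0.17, −0.47 and 0.10. Srebf1 and Lpcat3, LXR targets of fatty acid and phospholipid synthesis picked after their values were seen, were level, at 118.3 ± 12.6 and 118.5 ± 7.29 CPM and at 31.4 ± 1.89 and 31.3 ± 1.20 CPM.

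Among partners, coregulators and oxysterol enzymes, members included, 14 were tested, 7 higher and 7 lower (median 0.01). Without the members the numbers were 7 and 5 (median 0.09). Ncoa3 (0.45 ± 0.13) and Ncoa6 (0.23 ± 0.12), coactivators of nuclear receptors, lay apart upward at 115 ± 13.7 and 157 ± 9.38 CPM and at 43.4 ± 2.76 and 51.0 ± 5.18 CPM. The corepressor gene Ncor1 was at 161 ± 28.8 and 154 ± 8.61 CPM (−0.06 ± 0.14, and 0.10 without wild-type replicate 1).

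Among lipoprotein receptors and their partners, members included, 13 of 17 tested were fitted higher (median 0.17). Without the members 11 were higher and 3 lower (median 0.22). Scarb2 (0.60 ± 0.21), a lysosomal relative of Scarb1, and Sorl1 (0.25 ± 0.20), a sorting receptor that binds Apoe, overlapped, as did Lrp10 (−0.01 ± 0.12). Without wild-type replicate 1 Sorl1 was at 0.06 and Lrp10 at −0.05. Dab2 (0.39 ± 0.21), an adaptor of receptor uptake, lay apart upward, at 10.02 ± 2.79 and 13.2 ± 0.856 CPM, and was at 0.18 on the log2 scale without that library.

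In lipase handling, Lpl included, 2 of 9 tested were higher and 7 lower (median −0.02). Without Lpl the numbers were 2 and 6 (median −0.01). Sdc1, a heparan sulfate proteoglycan that binds lipoproteins, was at 50.0 ± 4.80 and 38.4 ± 3.30 CPM (−0.38 ± 0.13). Pcsk6, a proprotein convertase, was at 37.7 ± 5.79 and 28.4 ± 1.84 CPM (−0.41 ± 0.14). Both lay apart downward, whereas Furin (0.05 ± 0.11) and Hspg2 (0.01 ± 0.12), the perlecan gene (0.06 without wild-type replicate 1), were level. In cholesterol storage and transport, 13 of 20 were higher and 7 lower (median 0.11). Nceh1, a cholesterol ester hydrolase gene, lay apart upward (6.33 ± 0.909 and 9.03 ± 1.21 CPM, 0.50 ± 0.18). Stard4, a carrier of cholesterol between membranes, lay apart downward (5.47 ± 1.43 and 3.44 ± 0.802 CPM, −0.68 ± 0.27). So did Gramd1b, also a sterol carrier, at 0.779 ± 0.201 and 0.359 ± 0.0390 CPM (−1.10 ± 0.43). Gramd1b rested on only 17, 13 and 19 counts in wild type and 7, 8 and 9 in knockout. Counting error alone amounts to 24.7% and 35.4% of its mean counts per library. The caveolin genes Cav1 (−0.05 ± 0.20) and Cav2 (0.04 ± 0.24) overlapped, and were at −0.24 and −0.20 without wild-type replicate 1. The direction of Cav1, Cav2, Scd2, Ncor1, Furin, Hspg2 and Lrp10 turned under at least 1 alternative fit.

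Of the apolipoprotein and lipid transfer list 7 were tested, Apoe included, 2 higher and 5 lower (median −0.22). Without Apoe the numbers were 2 and 4 (median −0.22). Clu, the clusterin or apolipoprotein J gene, was the most abundant, at 1448, 1228 and 1304 CPM in wild type and 1135, 1109 and 1199 CPM in knockout. Like Apoe it lay apart downward, by a smaller amount (−0.21 ± 0.12 SE, edgeR adjusted p = 0.778). Lcat, the cholesterol acyltransferase gene of plasma lipoproteins, was low, at 1.23 ± 0.740 and 0.647 ± 0.0243 CPM (−0.90 ± 0.47, and −0.33 without wild-type replicate 1). None of the genes named from the lists here passed edgeR with all 6 libraries.

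**Figure D5:**
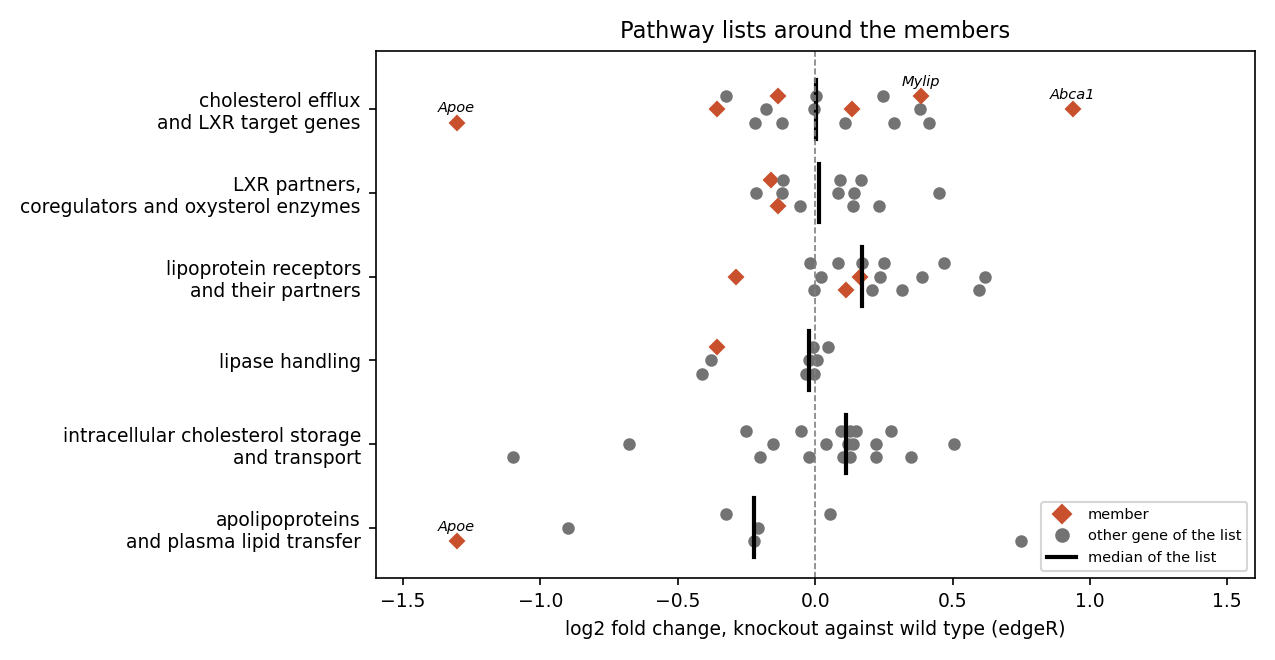
Log2 fold change, knockout against wild type, of the tested genes in the 6 pathway lists that are reported here, with members as red diamonds, other genes as grey circles and the median of all tested genes of a list as a black line. List medians lie between −0.22 and 0.17, and Apoe and Abca1 lie farthest to the left and right in the efflux list.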

How the data were processed

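Values deposited by the authors are expected counts, 1 per gene and library, with no normalisation. This was read from the table itself, where 65.4% of entries were whole to within 0.01 and totals varied by library. Per the submitters' processing notes STAR 2.6, DESeq2 and mm10 were used. The counting step and its use of strand are not stated in the labels. Stop coordinates lay most often 1 base past the RefSeq gene end, so 1 was subtracted.

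Expected counts were rounded, filtered with filterByExpr and scaled with TMM. Genotypes were compared with edgeR 4.0.16's quasi-likelihood test (robust=TRUE, R 4.3.3), 2-sided, adjusted by Benjamini-Hochberg over all 15185 genes at a threshold of 0.05. An SE is the size of the log2 fold change over the square root of F. The test was tried on simulated data. DESeq2 1.42.0, limma 3.58.1 (voom), other scalings and filters, a replicate block and leaving out each library were alternatives. Exon lengths and transcripts came from GENCODE vM1 (NCBIM37), for length and sequence only. Promoter sequences were found for 7 members.

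The members and lists were chosen with earlier results of these data known. Named were all members, and from each pathway list the 3 other genes with the smallest p and the 2 with the highest CPM. From each marker list the 3 highest were named. Some genes that this rule picks are not reported here. Named outside this rule, after their values were seen, were Srebf1, Lpcat3, Ptprc, Adgre1 and Gm42633.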

Additional observations from a re-analysis of the deposited data

How the results depend on the processing

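With all 6 libraries edgeR called 0 genes, 0 members and 0 genes of the pathway lists, with 955 genes at an unadjusted p under 0.05. Library totals alone, DESeq2's size factors, both other filters and robust=FALSE also gave 0, as did limma voom (990 at an unadjusted p under 0.05). DESeq2 called 68 genes, 1 member (Apoe) and 3 pathway genes, Apoe among them. The counts with 1 library left out ran from 0 to 9 genes, 0 to 0 members and 0 to 1 pathway gene in edgeR. The 9 were without wild-type replicate 1. DESeq2 with 1 library left out, chosen after seeing the data, called from 0 to 2 members and from 4 to 107 genes in all. Of the member fold changes under the alternatives, 136 kept their direction and side of the threshold, 1 (Apoe in DESeq2) passed it, and 3 turned sign. With 1 library left out Abcg1 ran from −0.037 (wild-type replicate 2 omitted) to 0.46, also turning to −0.016 when knockout replicate 3 was omitted, and Nr1h3 ran from −0.24 to 0.052 (wild-type replicate 1 omitted). With the replicate block edgeR called 0 genes, with 257 higher and 315 lower at an unadjusted p under 0.05. Same-numbered libraries did not deviate together (r = −0.27, −0.18 and −0.08), and none correlated best with its own number. With 3 libraries per genotype this cannot settle whether the numbers pair them, and the labels do not say so. The numbers were therefore not used as a pairing in the main fit. Without division by length Nr1h2 stood at 17.6 times Nr1h3 and Lrp1 at 6.03 times Vldlr, against 13.2 and 3.42 per exon length. By the longest coding transcript, chosen after seeing the data, they were 17.2 and 3.23. Among the members, counting error limits Abcg1 most.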
